A study of Drosophila melanogaster with 2 samples.

Results

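Intergenic summits of the tx binding map are described here, that is, points of strongest signal that lay between genes and away from start sites. A summit was kept when it was over 1000 bp from every transcription start site (TSS) of a protein-coding transcript and outside every annotated gene, with transposable elements not counted as genes. The authors' optimal dm6 list, in which peaks passed an irreproducible discovery rate (IDR) threshold, holds 3102 peaks, of which 283 met the rule (9.12%, 95% Wilson interval 8.16 to 10.2%). The other 2819 peaks comprised 2014 within 1000 bp of such a start site and 805 farther away but inside a gene. The label of an intergenic, distal set held by construction, with reservations. The intervals of 21 of the 283 peaks (7.42%) reached into a gene although their summits did not. The rule counts start sites of protein-coding transcripts only, and with the start sites of every gene 245 summits remained.

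The data came from chromatin immunoprecipitation and sequencing (ChIP-seq) of Drosophila melanogaster embryos, collected whole and aged 0 to 24 h, with both sexes mixed. All flies were of the tx-GFP strain, a stable transgenic line in which green fluorescent protein is attached to the C-terminus of tx, and the antibody recognised that tag, per the sample descriptions, although the antibody label reads tx. What drives the fusion, and whether untagged tx was also made, is not stated in the labels. Chromatin was sonicated. There were 2 biological replicates of this 1 group and no second condition, so no test between groups could be made. All cell types of the embryo were pooled, read depth is unknown, and no untagged line or other control library was analysed here. Peaks are not replicates, so classes of peaks are compared below by values with counting intervals and no p-value.

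The protein tx (taxi, also delilah) belongs to the basic helix-loop-helix (bHLH) family, whose members bind DNA as dimers at the E-box, CANNTG. It is known from tendon cells, to which muscles attach, and from the developing wing. Fly genes are closely spaced, and DNA far from start sites can hold enhancers, insulators, Polycomb response elements or promoters of noncoding RNA genes. A peak by itself does not tell these apart and does not name the gene it acts on.

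To show what DNA lay under the summits, 50 bp on either side are printed for the 8 strongest intergenic summits, other than those near CG13323 and CycB, whose sequence is not shown, and for the next strongest 3 that held an E-box, again leaving out those whose sequence is not shown. All are the plus strand of the Release 6 genome (dm6 coordinates), in lower case with every CANNTG in capitals. Each line starts with the genes on either side and the rank by signal in the optimal set.
mtSSB and tara, rank 35, chr3R:16222429-16222529: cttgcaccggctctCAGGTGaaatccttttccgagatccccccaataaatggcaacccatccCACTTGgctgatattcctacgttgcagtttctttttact
Cyt-c1L and eEF1gamma, rank 59, chr3R:29214414-29214514: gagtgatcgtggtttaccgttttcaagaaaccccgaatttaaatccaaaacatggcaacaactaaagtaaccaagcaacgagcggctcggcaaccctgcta
RFeSP and chinmo, rank 83, chr2L:1638674-1638774: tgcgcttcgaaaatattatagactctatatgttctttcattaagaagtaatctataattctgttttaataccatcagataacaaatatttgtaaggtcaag
mtSSB and tara, rank 90, chr3R:16224464-16224564: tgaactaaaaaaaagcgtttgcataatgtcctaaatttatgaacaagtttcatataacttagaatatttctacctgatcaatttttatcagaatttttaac
COX7AL2 and CG31668, rank 91, chr2L:2202379-2202479: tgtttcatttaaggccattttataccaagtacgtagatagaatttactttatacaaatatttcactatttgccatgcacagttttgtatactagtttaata
CG3149 and AdamTS-B, rank 104, chrX:5696458-5696558: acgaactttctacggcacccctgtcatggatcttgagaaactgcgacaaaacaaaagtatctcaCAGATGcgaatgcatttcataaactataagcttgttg
Atg13 and stck, rank 121, chr3R:8355680-8355780: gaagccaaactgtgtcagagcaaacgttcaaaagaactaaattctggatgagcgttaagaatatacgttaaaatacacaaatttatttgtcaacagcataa
CG43131 and RabGGTa, rank 154, chr3R:5113218-5113318: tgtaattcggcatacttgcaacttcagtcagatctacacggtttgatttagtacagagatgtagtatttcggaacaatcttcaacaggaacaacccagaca
CG44362 and CG7560, rank 207, chr3L:11418469-11418569: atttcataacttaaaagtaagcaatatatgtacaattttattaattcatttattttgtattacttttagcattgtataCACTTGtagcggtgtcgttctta
slp1 and slp2, rank 245, chr2L:3832479-3832579: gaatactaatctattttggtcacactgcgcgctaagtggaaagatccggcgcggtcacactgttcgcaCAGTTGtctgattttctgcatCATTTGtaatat
dati and lgs, rank 387, chr4:424768-424868: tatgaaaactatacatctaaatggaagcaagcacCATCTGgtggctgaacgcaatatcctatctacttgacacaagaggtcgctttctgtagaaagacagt

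Several of these windows were rich in A and T, and 6 of the first 8 held no E-box. The window near chinmo had a GC content of 26.7%, and the second window near tara had 23.8%. The first window near tara had a GC content of 47.5% and 2 E-boxes, CAGGTG and CACTTG. That near eEF1gamma had a GC content of 45.5% and no E-box. The window between slp1 and slp2 also held 2 E-boxes, CAGTTG and CATTTG.

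In strength the intergenic summits had nearly the same median as the genic ones far from start sites. The authors' peak signal, whose scale is theirs and is compared here within the optimal list, had a median of 87.6 (quartiles 70.0 and 122) at intergenic summits. It was 87.5 at distal summits inside genes and 93.5 at summits near start sites. The median rank among all 3102 peaks was 1667 for intergenic, 1670 for distal genic and 1481.5 for promoter summits. The 620 strongest peaks of the set included 49 intergenic summits, or 17.3% of them (Wilson interval 13.4 to 22.2%), compared with 14.9% (12.6 to 17.5%) of the distal genic summits and 22.4% (20.6 to 24.3%) of the promoter summits.

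The strongest intergenic summit lay in a gap next to a Polycomb group gene. Between Su(z)2, a relative of Psc in Polycomb repressive complexes, and CG13323, on 2R from 13035140 to 13035526, it had a signal of 825 and rank 14 in the set, 11 in replicate 1 and 25 in replicate 2. It was 27433 bp from the annotated end of Su(z)2 and 9351 bp from CG13323. The gap between CG13321 and Psc, the Polycomb group gene Posterior sex combs, held 3 more summits, at ranks 293, 1758 and 3020. Those at ranks 1758 and 3020 were 266 bp apart with overlapping intervals, and the weaker had no match in replicate 1. The gap between Psc and CG33798 held 2, at ranks 504 and 1948, and a further summit at rank 2771 lay 446 bp beyond Su(z)2. This neighbourhood was singled out after its values were seen.

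Next came tara, which encodes the transcriptional coregulator taranis of the trithorax group. Upstream of it, 3172 bp from its TSS on 3R, a summit had a signal of 553 and ranked 35 in the set, 33 in replicate 1 and 36 in replicate 2. A second, 1137 bp from the TSS, had a signal of 364 and ranks of 90, 73 and 142. Another, 644 bp from the first, had a signal of 81.2 and ranked 1886. The first 2 were thus high in both replicates.

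At eEF1gamma, a subunit of a translation elongation factor, the summit was 5708 bp upstream of the TSS and had a signal of 450, with rank 49 in replicate 1 and 77 in replicate 2. It was 98 bp from the noncoding gene lncRNA:CR31044. The summit between blw, the alpha subunit of mitochondrial ATP synthase, and CycB, which encodes the mitotic cyclin B, had a signal of 446 and ranks of 54 and 67. Its gap was only 1340 bp long, and it faced the 3′ ends of both genes, 777 and 564 bp away.

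The other strong summits bordered genes of varied roles. The gap between RFeSP, the Rieske protein of respiratory complex III, and chinmo, a BTB zinc finger factor of temporal identity in neurons, held summits of ranks 83, 179 and 407. Summits at ranks 91, 104, 154 and 207 lay beside CG31668, between CG3149 and AdamTS-B, a metalloprotease gene, upstream of CG43131 and upstream of CG7560. Those at ranks 311, 340, 374 and 387 lay between CG9300 and the potassium channel gene Shal, upstream of GV1, between CG9932 and Ttc30, and between dati and lgs, the latter a cofactor of Wnt signalling. The last had a signal of 189 and was 1 of 3 intergenic summits on chromosome 4. In each of the 20 strongest both replicates had a summit within 100 bp, the weakest rank being 401 in replicate 1 and 660 in replicate 2.

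Developmental regulators and adhesion genes were among the neighbours of the 20 strongest. The summit between the forkhead segmentation genes slp1 and slp2 had a signal of 232 and ranked 245 in the set, 237 in replicate 1 and 293 in replicate 2, at 4311 bp upstream of slp2. The summit at stck, which encodes the integrin adhesion adaptor PINCH, had a signal of 311 and ranks of 121, 114 and 179. It was 1248 bp upstream of the TSS. That at by, which encodes the focal adhesion protein tensin, had a signal of 218 and ranks of 286, 401 and 219, at 1319 bp upstream. In the bithorax region a summit of signal 189 and rank 389 lay between Glut3 and the Hox gene abd-A, 8333 bp from the 3′ end of abd-A.

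**Figure D1:**
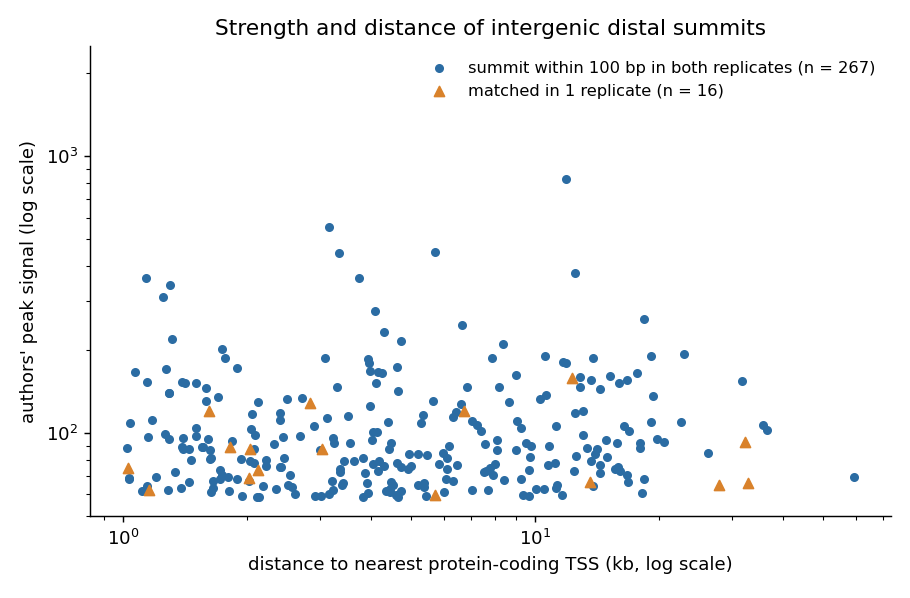
Each point is 1 of the 283 intergenic distal summits, with the distance to the nearest protein-coding start site (kb, log scale) on the horizontal axis and the authors' peak signal (log scale) on the vertical axis. Circles mark the 267 summits found within 100 bp in both replicate lists and triangles the 16 found in 1 list, and strong summits occur both near 1 kb and beyond 10 kb.

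Most intergenic summits were matched in both replicate lists. Agreement between replicates was part of how the set was chosen, through the IDR threshold, so the values below are not independent evidence of it. Each replicate list holds 30000 peaks, against 3102 in the set. A summit of the replicate 1 list lay within 100 bp at 280 of the 283, and one of replicate 2 at 270, whatever its strength there. Both lists had such a summit at 267 (94.3%, Wilson interval 91.0 to 96.5%), beside 91.0% of all optimal peaks. Ranks in replicate 1 ran from 11 to 4632 with a median of 1788.5, and in replicate 2 from 25 to 24426 with a median of 1576. Within the strongest 3102 peaks of both replicates stood 188 (66.4%, interval 60.7 to 71.7%), again near the 65.2% of all optimal peaks. Across the 267 summits the signals of the replicates had a Spearman's rho of 0.590, and their logarithms a Pearson's r of 0.713, both as descriptions across peaks that share the same libraries.

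Disagreement was mostly on the side of replicate 2. Of the matched summits 11 ranked beyond 6204 in replicate 2, and 0 did in replicate 1. Over all optimal peaks 208 of 2871 matched in replicate 2, and 18 of 3049 in replicate 1, ranked that low, so the asymmetry was shared by the whole set. The 11 included a summit between RYBP and Ppa (rank 1135 in replicate 1 and 19148 in replicate 2), the summit between SoxN, a neural Sox gene, and CG32986 (1706 and 16822), and that next to REPTOR (1232 and 14370). Of the 16 summits without a match in 1 list, 4 had another optimal summit within 500 bp. Between Rh5, a photoreceptor opsin gene, and Wdr81, a pair of summits 200 bp apart ranked 855 in replicate 1 with no match in replicate 2, and 853 in replicate 2 with no match in replicate 1. When overlap of the peak intervals was taken in place of summit distance, 279 of the 283 were found in both lists.

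**Figure D2:**
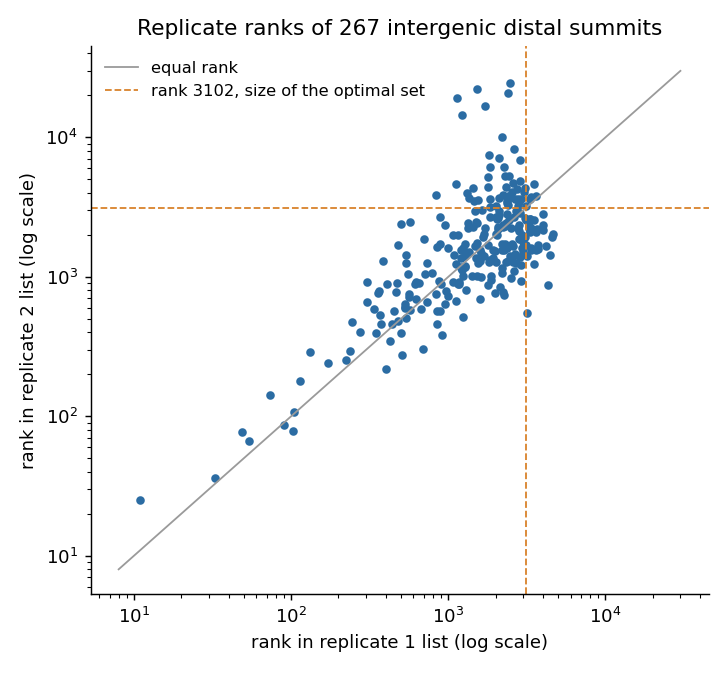
Each point is 1 of the 267 intergenic summits found in both lists, with its rank in replicate 1 (horizontal) and in replicate 2 (vertical), both on log scales. The solid line marks equal rank and the dashed lines rank 3102, and the 11 summits beyond rank 6204 in replicate 2 stand at the top.

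The nearest protein-coding TSS was at a median of 4415 bp (quartiles 2101 and 9717.5 bp), 69 summits (24.4%) were over 10 kb away and 11 (3.89%) over 20 kb. The nearest TSS lay downstream of the summit, so that the summit was upstream of the gene, in 172 cases (60.8%, Wilson interval 55.0 to 66.3%), beside 57.5% of all DNA that met the positional rule. That DNA, called eligible below, was 35.0 Mb, or 26.2% of the 6 arms. Intergenic summits stood at 8.09 per Mb of it (exact Poisson interval 7.17 to 9.09), compared with 11.3 per Mb (10.5 to 12.1) for distal genic summits and 74.3 (71.1 to 77.6) for promoter summits in the DNA of their own classes.

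Density was lower farther from start sites. At 1 to 2 kb the 62 summits amounted to 18.0 per Mb (exact Poisson interval 13.8 to 23.1), at 2 to 5 kb the 96 amounted to 12.7 (10.3 to 15.6), and at 5 to 10 kb the 56 to 7.83 (5.91 to 10.2). At 10 to 20 kb the 58 summits gave 8.69 per Mb (6.602 to 11.2), which did not differ from the bin before it beyond the counting intervals. Over 20 kb there were 1.08 per Mb (0.540 to 1.93). Soft-masked repeats made up 27.0% of all eligible DNA and 21.9% of that within 20 kb, and their part in the low density farther out was not tested. Signal did not fall with distance in the same way: its median was 88.8 at 1 to 2 kb, 80.4 at 2 to 5 kb, 84.3 at 5 to 10 kb, 93.4 at 10 to 20 kb and 92.9 beyond.

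**Figure D3:**
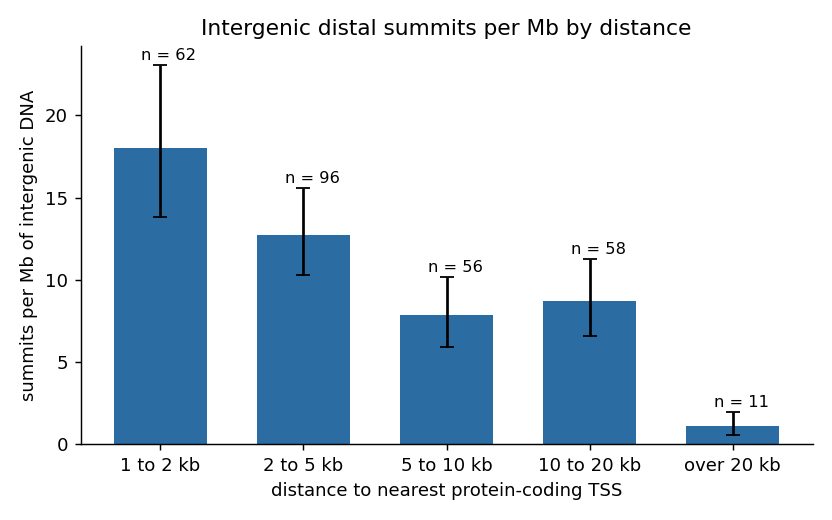
Bars give intergenic summits per Mb of eligible intergenic DNA in 5 bins of distance to the nearest protein-coding start site, with exact Poisson 95% intervals, and n is the number of summits. The density is 18.0 per Mb in the nearest bin and 1.08 in the farthest.

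The summit farthest from a start site was near the homeodomain gene hth, the Hox cofactor homothorax. Its nearest TSS, that of Cyp12e1, was 59534 bp away, whereas the 3′ end of hth was 13238 bp away. Its signal was 69.5, with ranks of 2784 in replicate 1 and 2247 in replicate 2. Next were a summit between NijA and CG43245, at 36647 bp (rank 1272), and one between drl, a receptor of the Ryk family, and CG31797, at 35743 bp (rank 1200). The 4th and 5th lay between plh and corto, at 32925 and 32358 bp, had ranks of 1502 and 1058 in replicate 1 and had no match in replicate 2.

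On either side of the 1000 bp limit stood the following summits. The 3 just over it were near RabGGTa at 1021 bp (signal 88.3), ex at 1030 bp (74.8) and CG43373 at 1033 bp (68.6). The 3 just under it and outside genes were near CG9498 at 949 bp (signal 134), Prip at 945 bp (60.1) and CG8517 at 888 bp (62.4).

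Arms differed in the number of intergenic summits. Arm 2L held 75, or 11.5 per Mb of eligible DNA (exact Poisson interval 9.06 to 14.4), arm 3L 78 (8.98 per Mb, 7.10 to 11.2) and arm 3R 55 (7.52 per Mb, 5.66 to 9.79). The X held 33 (6.56 per Mb, 4.51 to 9.21), arm 2R 39 (5.41 per Mb, 3.85 to 7.40) and chromosome 4 held 3. Within 20 kb of a start site, a limit set after the data were seen, the spread between arms was narrower, from 8.88 per Mb on 3R (6.63 to 11.6) to 13.6 on 2L (10.7 to 17.2) among the 5 major arms. The X had 9.18 per Mb there (6.32 to 12.9).

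Gaps between genes facing away from each other carried more summits per length than gaps between genes on the same strand. A gap is the DNA between neighbouring protein-coding genes. Divergent gaps held 98 summits (34.6%, Wilson interval 29.3 to 40.3%) and 23.8% of the eligible DNA in gaps, or 12.4 summits per Mb (exact Poisson interval 10.1 to 15.2). Convergent gaps held 66, or 8.20 per Mb (6.34 to 10.4), and tandem gaps 119, or 6.92 per Mb (5.73 to 8.28). Median signals were 88.5, 88.1 and 83.0. The densities were not matched for distance to a start site, and the part of distance in them was not tested. Beside a gene end, 29 summits lay within 500 bp of a protein-coding gene, and all 29 were at a 3′ end, which the rule forces because a 5′ end is a start site. Among them were a summit 126 bp from Zasp52, a scaffold of integrin adhesions and muscle Z-discs (rank 2580, with no match in replicate 2), and 1 of rank 1675 located 156 bp past the actin gene Act87E.

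Some gaps held several summits. The 283 fell into 212 gaps, of which 169 held 1 summit, 26 held 2, and 17 held 3 or more, with 62 summits between them. The gap between RFeSP and chinmo, 37.1 kb long, held 9 over 33.7 kb (33669 bp), at ranks from 83 to 2395. Both replicates matched 8 of the 9. The summits at ranks 83 and 573 were 228 bp apart within the same interval, so they share an interval. The same gap holds lncRNA:CR44603 and lncRNA:CR45695.

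Other gaps with many summits bordered transcription factor and signalling genes, as well as genes with no well known role. Between hng3 and CG13898, 47.9 kb apart, there were 5, at ranks from 604 to 2234, and the gap also holds 2 genes for isoleucine tRNA. Beside noc, the zinc finger gene no ocelli, 4 summits lay at ranks 439, 686, 1212 and 1594, and a further 2 lay on its other side, at ranks 803 and 1308. Between the T-box genes Doc2 and Doc1, which act in the heart and the amnioserosa, 3 lay at ranks 861, 2548 and 2840. Between Ids and sty, the receptor tyrosine kinase inhibitor sprouty, 3 lay at ranks 588, 1133 and 1640.

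The 3 summits between RYBP, which encodes a Polycomb-associated protein, and Ppa ranked 1062, 1559 and 2957 in the set. In the same order they ranked 1604, 1135 and 2209 in replicate 1. In replicate 2 they ranked 689, 19148 and 10123, so those of set ranks 1559 and 2957 were low there. Short gaps with 3 summits were those between COX7AL2 and CG31668 (5.81 kb), Rh5 and Wdr81 (4.47 kb) and Hacd1 and Rh5 (5.89 kb). Both replicates matched 3, 1 and 2 of the summits in these gaps. Between Rh5 and Wdr81 the pair 200 bp apart had overlapping intervals. Between Hacd1 and Rh5 the summits at ranks 1381 and 2858 were 221 bp apart, also with overlapping intervals. The gaps between CG44362 and CG7560 and between CG6168 and CG6163 held 4 each, and those of NijA, CG7320 and CG4218 held 3 each.

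**Figure D4:**
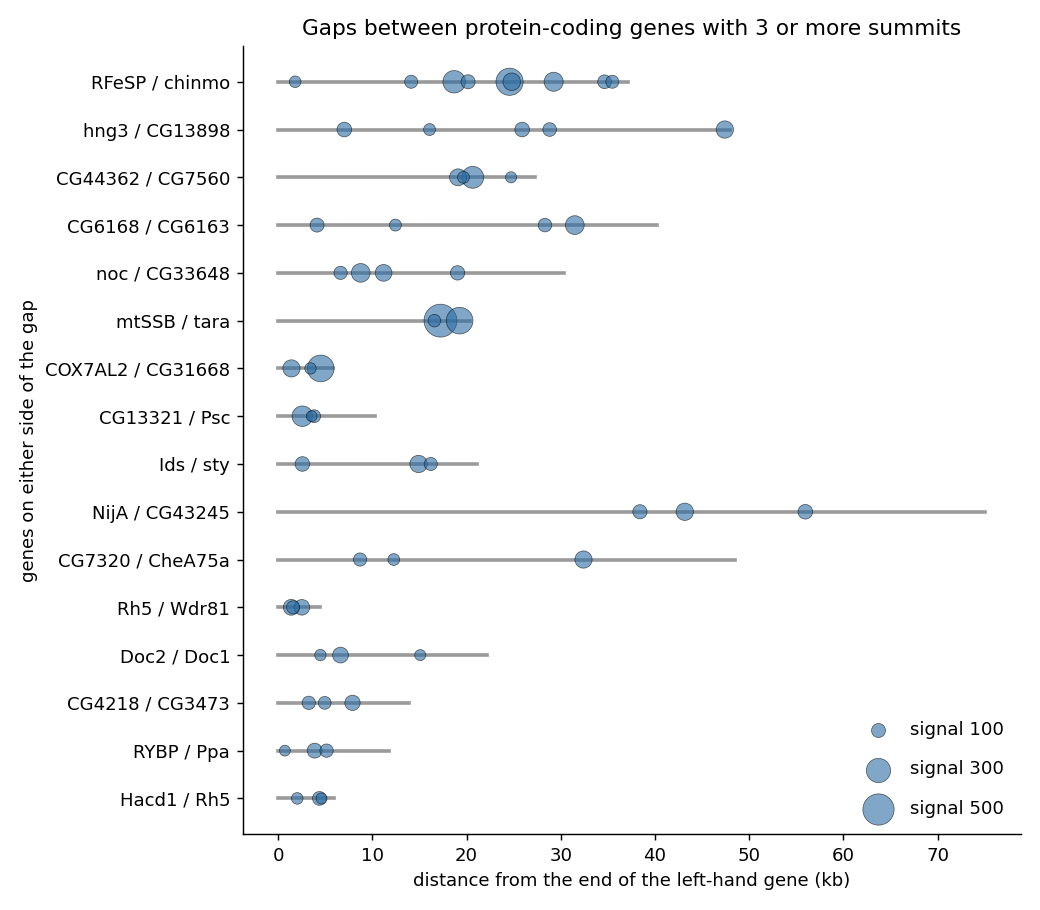
Each row is 1 gap between protein-coding genes with 3 or more intergenic summits, with 1 of the 17 such gaps not shown. The grey line is the gap, in kb from the end of the left-hand gene, and each circle is a summit whose area grows with the authors' peak signal. The gap between RFeSP and chinmo has 9 summits spread along it, whereas the 2 large ones near tara lie close to that gene.

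Summits of different classes also lay near each other. The next optimal summit was at a median of 8337 bp (quartiles 2136 and 23228 bp). It was itself intergenic in 124 cases (43.8%), at a promoter in 108 (38.2%) and inside a gene in 51 (18.0%). For 25 summits another intergenic summit lay within 1000 bp, and merging such neighbours gave 269 loci.

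Noncoding genes were close to some summits. A noncoding gene body lay within 1000 bp of 51 summits (18.0%, Wilson interval 13.98 to 22.9%), whereas 6.27% of eligible DNA was that close. With eligible DNA limited to 20 kb from a start site, a limit chosen after the data were seen, the values were 48 of 272 (17.6%, interval 13.6 to 22.6%) and 7.83%. Since summits cannot lie within noncoding genes by the rule, these are neighbours only. Start sites of noncoding genes were not excluded by the rule. With the start sites of every gene in it, 245 summits remained. Long noncoding or antisense RNA genes and other ncRNA genes made up 47 of the 51, and 1 each was a snoRNA, a snRNA, a gene annotated as microRNA and a pseudogene.

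Of the noncoding neighbours of strong summits, most have CR names and no well known role. lncRNA:CR45643 lay 916 and 660 bp from the summits of ranks 35 and 90 near tara. lncRNA:CR42794 was 615 bp from the summit of rank 104 near CG3149 and 416 bp from that of rank 615. Shorter distances were those of lncRNA:CR44676, 16 bp from the summit of rank 311 near Shal and lncRNA:CR44339, 220 bp from that of rank 504 beside Psc. Others near strong summits were lncRNA:CR45687 (996 bp, rank 340), asRNA:CR45281 (414 bp, rank 436) and asRNA:CR45999 (222 bp, rank 509).

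A few noncoding neighbours with known roles were picked out after their values were seen. The summit of rank 1620 lay 176 bp from lncRNA:flam, the flamenco locus that gives rise to piRNAs against transposons in the ovary, and 1567 bp from the TSS of DIP1. It ranked 1832 in replicate 1 and 1316 in replicate 2. Its base was soft-masked as repeat sequence, and the nearest annotated transposable element was 946 bp away. The summit of rank 1426 lay 233 bp from lncRNA:acal, between the BTB genes lola and psq. The spliceosomal RNA gene snRNA:U6:96Ac had at 92 bp the summit named above beside REPTOR (rank 1702, with ranks of 1232 and 14370 in the replicates), and snoRNA:185 had one at 10 bp (rank 1376).

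Of the 283 summits, 0 lay inside an annotated transposable element, which allows a share of up to 1.06% when the limit is set at 3 counts of 283 (the Wilson upper limit is 1.34%), whereas 11.1% of eligible DNA was inside one, and 9.27% of that within 20 kb of a start site. Distal genic summits had 1 of 805 inside such an element and promoter summits 6 of 2014. Soft-masked repeat sequence lay under 46 intergenic summits (16.3%, Wilson interval 12.4 to 21.0%) and 27.0% of eligible DNA. In the flank windows of the same summits the share was 16.1%. Within 20 kb of a start site it was 16.5% of summits (interval 12.6 to 21.4%) and 21.9% of eligible DNA. The treatment of repeats during mapping is not stated by the labels, and its part in these shares was not tested.

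E-boxes were not more frequent at the summits than beside them. Within 50 bp of the summit 98 of the 283 held a CANNTG (34.6%, Wilson interval 29.3 to 40.3%), against 41.2% of windows of the same width centred 500 bp away on both sides. The ratio of 0.841 had an interval of 0.712 to 0.980 when the flank share is taken as fixed. With 25 or 100 bp on either side of the summit, in place of 50, the interval included 1. Distal genic summits had 39.8% against 41.5%, and promoter summits 37.8% against 41.3%. GC content was also lower at the intergenic summits, at 35.2% (SD 7.90, n = 283 peaks), than in their flanks, at 41.6% (SD 7.35). It was 34.3% against 41.3% at distal genic summits and 37.1% against 45.5% at promoter summits. The part of GC content in the E-box share was not tested.

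By strength, the share was below that of the flanks among the stronger summits. Among the 128 intergenic summits in the 1551 strongest peaks the share was 32.8% against 47.3% in flanks, a ratio of 0.694 (interval 0.535 to 0.875). Among the 155 weaker ones it was 36.1% in both, a ratio of 1 (0.802 to 1.22). This contrast was not tested, and it lay more in the flank shares than in the summit shares. At the 69 summits over 10 kb from a TSS the share was 40.6% against 47.8%.

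Among the 10 CANNTG classes, each counted on both strands, the most frequent was CAAATG, at 34 summits (12.0%, with 12.4% of flanks). CAGCTG stood at 4 (1.41% against 3.004%), CACATG at 11 (3.89% against 6.18%) and CACGTG at 2 (0.707% against 0.530%). The others were CAACTG (5.65% against 6.89%), CAAGTG (5.30% against 5.65%), CATATG (4.24% against 4.95%), CAGATG (3.89% against 4.77%), CACCTG (3.18% against 3.89%) and CAATTG (2.47% against 3.53%). For each of the 10 classes the Wilson interval of the summit share included the flank share. Counts of this size cannot show small differences.

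**Figure D5:**
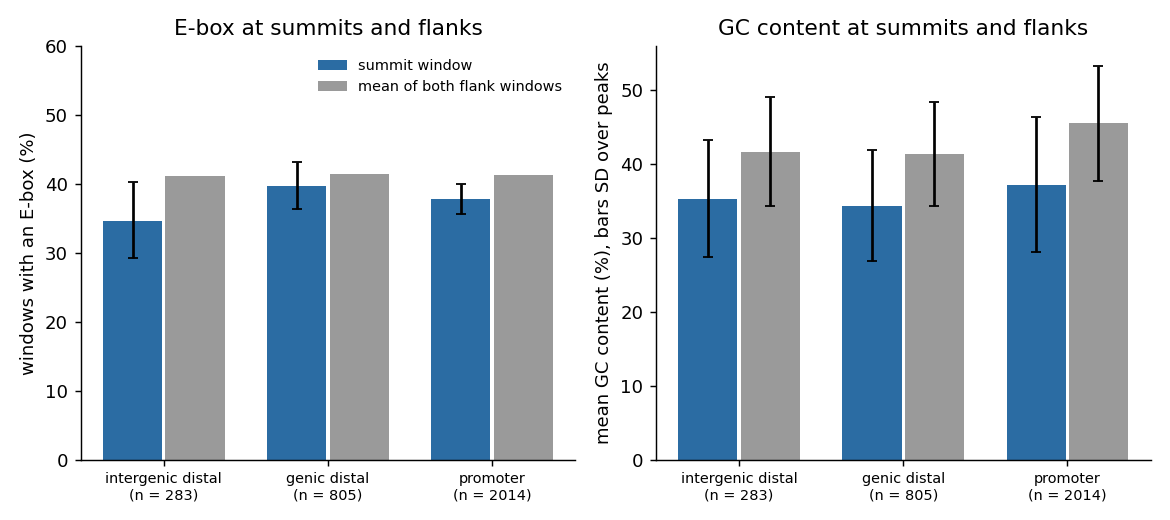
Left, the share of windows with a CANNTG at summits (with Wilson 95% intervals) and in flanks for intergenic distal, genic distal and promoter peaks. Right, the mean GC content of the same windows with the SD over peaks. For intergenic summits the share is 34.6% against 41.2% and GC 35.2% against 41.6%.

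Words bound by other factors were also counted. TATCGATA, bound by the promoter factor DREF, stood at 0 of 283 summits, which by the same limit of 3 counts allows up to 1.06%, and at 2 flank windows. CAGGTA, the site of the early activator Zelda, stood at 9 summits (3.18%, Wilson interval 1.68 to 5.93%) against 1.24% of flanks, or 7 windows in all (6 on the left and 1 on the right). The flank share was higher in the other classes, with 2.36% against 2.30% at distal genic summits and 1.79% against 2.68% at promoter summits. GAGAG, bound by GAGA factor, stood at 12.4% against 12.7%. The word TTAAAA stood at 27.2% (interval 22.4 to 32.7%) against 18.7%. Its excess was not particular to intergenic summits: it stood at 30.2% against 14.9% at distal genic and 29.9% against 12.2% at promoter summits. Among all 6-letter words, read on both strands, AAAGTA had the greatest difference, at 57 summits (20.1%) against 7.07% of flanks, and CAGCAA the greatest in the other direction, at 4.24% against 12.2%. These words were ranked on these windows, so their differences have no test, and the base composition above moves with them.

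Genes on either side of intergenic summits were compared with lists of embryonic genes. Of 13945 protein-coding genes on the 6 arms, 400 (2.87%) were the nearest gene on 1 side of a summit, or 6.28% of the 6369 genes that border eligible DNA. The 400 had far more eligible DNA beside them (median 13.5 kb) than all genes (median 0 kb). A list of genes in large gaps thus has more room for a summit, and for the lists with 4 or more such genes the median eligible DNA is given.

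Integrin adhesion genes bordered 4 of the summits. Of 16 matched genes of integrins and their adhesion complex, 4 did (25%, Wilson interval 10.2 to 49.5%; median 0.05 kb of eligible DNA): stck and by, described above, Zasp52 and the alpha integrin gene scb (rank 3098, 2116 bp away). Of the 20 genes of tendon and muscle attachment 2 did (10%, interval 2.79 to 30.1%), the odd-skipped family gene drm with 4 summits, the strongest at rank 1387 and 25098 bp away, and wb, a laminin alpha chain gene (rank 3003, 17297 bp away). Near tx itself, on its upstream side, a summit of signal 101.006 lay 4040 bp from the TSS. It ranked 1312 in the set, 1610 in replicate 1 and 991 in replicate 2, with 0 E-boxes in its window. Oli and Myc were the other 2 of the 31 bHLH genes that did (9.68%).

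Lists of developmental regulators had shares of 16.1 to 27.3% and much eligible DNA. Of the 30 Iroquois, Sox and other regulators 8 did (26.7%, interval 14.2 to 44.4%; median 12.4 kb), among them the head gap gene ems (rank 965), the Sox genes Sox21a and Sox21b on either side of the summit of rank 1033, and drm. Of 22 wing and vein genes 6 did (27.3%, interval 13.2 to 48.2%; median 26.3 kb), with tsh (rank 1528), vvl (rank 1752), hth (rank 2388) and the spalt gene salm (rank 2658, with no match in replicate 2). Of 31 segmentation and Hox genes 5 did (16.1%, interval 7.09 to 32.6%; median 17.9 kb), namely slp1, slp2, abd-A, hry, the gene hairy (rank 756), and kni (rank 2671). A summit in a gap between list members, as with slp1 and slp2, counts for both. Distances from a gene to its strongest summit ran from 768 to 44075 bp in these lists. They were 21595 bp for hry, 21477 bp for vvl, 16600 bp for salm and 16206 bp for kni. The summit counted for kni lay 1254 bp from cmpy. Some genes, such as kni, vvl, drm and sty, are shared between lists, so the lists are not separate observations.

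Signalling lists had 3 genes each. In the Notch and E(spl) list of 19 genes the summit of rank 408 lay between E(spl)malpha-BFM and E(spl)mbeta-HLH, and the other gene was fng, a glycosyltransferase of Notch (rank 2895), or 15.8% in all. In the EGFR and RTK list of 25 they were sty with 3 summits, the repressor aop and the ligand gene vn. The summit of aop ranked 1243 and lay 1504 bp away. That of vn ranked 2529 and lay 24185 bp from vn but 1652 bp from the TSS of CG5568. In the Wnt, Hh and Dpp list of 25 they were the receptors ptc (rank 1147) and fz (rank 2201) and the antagonist sog (rank 2508). Both of the last lists had 12% (interval 4.17 to 29.96%).

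The remaining lists had from 0 to 2 genes each that were the nearest on 1 side of a summit, at any distance. Somatic muscle identity and fusion had 1 of 26, tup with 2 summits, the stronger at rank 1114, and muscle structural proteins had 1 of 20, Act87E. Markers of trachea had 2 of 11 (18.2%, interval 5.14 to 47.7%), sty and vvl. Those of fat body and gut had 2 of 15 (13.3%, interval 3.74 to 37.9%), bin (rank 1949) and kni. Those of epidermis and cuticle had 2 of 20 (10%, interval 2.79 to 30.1%), vvl and ple. Nervous system markers had 1 of 19, nerfin-1 (rank 1889), and the nuclear receptor list 1 of 22, kni. Hemocyte markers had 0 of 13 and germline markers 0 of 12. Intervals for lists of this size are wide, as that of 0 to 22.8% for the hemocyte list shows.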

How the data were processed

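Per the text deposited with the samples, each replicate's peak list was made by the authors from its own alignments and a further file common to both, and the optimal set from the pooled and replicate lists. No label or header names an aligner or a caller of peaks. The deposited signal of each peak is the authors' value in a unit they do not state. It served for ranks and descriptions inside each list and for the correlations between the replicate lists. The deposited q-value, in −log10 units by the file format, was not used. The dm3 lists and the pooled list of background peaks were not used here.

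Summits (start plus offset, 1-based) were placed on genes of Ensembl release 115 (BDGP6.54). Sequence came from the NCBI copy of the Release 6 genome, whose coordinates are those of dm6. Replicate summits were matched within 100 bp. Eligible DNA is every base other than N that meets the rule. Of 389 gene list entries 377 matched a gene, 9 through a synonym. Genes named are those at the 20 strongest summits, gaps with 3 or more, the 5 farthest, noncoding neighbours of 10, the limit, and up to 4 per list. Others, such as those with large rank differences between replicates, noncoding genes of known role, genes around Psc and noc, and tx, were chosen after their values were seen. No sequence from 2R is printed, and 1 gap with its summits is not reported by name here. Members and lists were chosen with earlier results of these data known. Wilson and exact Poisson intervals at 95% cover counting only. Python 3.11.15, numpy 2.4.6, pandas 2.3.3, scipy 1.17.1 and matplotlib 3.10.9 were used. Distance, overlap and motif functions were tested on simulated data.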

Additional observations from a re-analysis of the deposited data

How the results depend on the processing

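Of the 42 values recomputed under alternatives 30 stayed within the counting interval of the reported value, or within 1.5 times the count, and 12 moved. The number of summits was 331 with a start site limit of 500 bp, 221 with 2000 bp and 245 with the start sites of every gene. It was 262 with whole peaks outside genes and 269 with neighbours within 1000 bp merged (chosen after seeing the data). Among the 1551 strongest peaks it was 128, and the median rank there was 818. From 1 replicate's own 3102 strongest peaks it was 275 without replicate 2 and 301 without replicate 1, with 246 and 216 of those within 100 bp of a summit described above. The median distance to a protein-coding start site was 3737 bp with the 500 bp limit and 6076 bp with 2000 bp, each by construction of the limit. With the start sites of every gene the median was 3401 bp, but that distance is to any start site, noncoding genes included, and is another measure. The median distance to a protein-coding start site ran from 4586 to 4623 bp with a replicate left out. The share matched in both replicates was 72.4% within 50 bp, 98.2% within 250 bp and 98.6% by interval overlap. The E-box ratio was 0.694 among the 1551 strongest peaks, the cause of which was not tested, and ran from 0.774 to 0.807 with a replicate left out. With 25 bp on either side it was 0.816 (interval 0.633 to 1.04) and with 100 bp 0.920 (0.833 to 1.003), so both intervals included 1. Noncoding genes lay within 500 bp of 10.2% of summits and within 5000 bp of 45.2%, and within 1000 bp of 24.2% of those among the 1551 strongest peaks. No paired analysis was possible because the series has 1 group. Read depth is unknown and limits what weak summits can show.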
